A study of Mus musculus with 6 samples.

Results

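Aminoacyl-tRNA synthetases were followed in the cerebellum of mice on a manganese (Mn) deficient diet. The 36 genes are the 20 cytosolic enzymes and the 16 mitochondrial enzymes (suffix 2) that were listed by name, out of 53715 mouse genes in the count table. They were picked by symbol, with earlier results of these data known. Male wild-type C57BL/6 mice were bought at 4 weeks of age, kept on a purified metal-basal diet with 35 ppm Mn, and then fed either a low-Mn diet (0 ppm by the labels) or the normal-Mn diet (35 ppm) for 2 weeks. The labels call the animals adult. Polyadenylated RNA of 1 cerebellum per mouse was sequenced from 3 mice of each diet. The methods call the 3 libraries of a diet biological replicates while a legend calls them technical, so p-values measure the spread between these libraries. The comparison asked which RNA levels follow dietary Mn in a whole cerebellum. In such bulk samples, fewer cells of a type and less RNA per cell cannot be told apart.

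Each synthetase joins an amino acid to its own tRNAs, in a reaction that uses ATP, and thereby sets the genetic code at translation. The enzymes fall into class I and class II by the fold of their catalytic domain. Cytosolic enzymes serve the ribosomes of the cytoplasm, and several of them are held together with scaffold proteins in a multisynthetase complex. Mitochondrial enzymes are made from nuclear genes, imported, and serve the ribosomes that translate the few proteins encoded in mitochondrial DNA. Gars and Kars encode both the cytosolic and the mitochondrial form of their enzyme. Inherited changes in several cytosolic synthetases cause peripheral neuropathy, and changes in mitochondrial synthetases cause encephalopathies or leukodystrophies. When uncharged tRNA accumulates, the kinase GCN2 and the transcription factor ATF4 raise a set of genes that includes many cytosolic synthetases.

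Library totals were 17124327, 14548336 and 16319036 counts on the low-Mn diet and 21235216, 21277469 and 18446701 on the normal-Mn diet. Every low-Mn library was thus smaller than every normal-Mn library. The lowest count of any synthetase in any library was 84. The labelled tissue was checked by its markers. All 6 granule cell markers and all 6 Purkinje cell markers were detected in every library, with summed levels of 3639 to 3707 counts per 1000000 library counts (CPM) on the low-Mn diet and 3511 to 3787 on the normal-Mn diet for granule cells, and 8482 to 8862 against 8135 to 8690 for Purkinje cells. The library totals were scaled with trimmed mean (TMM) factors.

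Of the 36 synthetases, Fars2 alone passed the test between diets, and it was lower on the low-Mn diet. All 36 had enough counts to be tested with edgeR's quasi-likelihood test, and a gene was called at a Benjamini-Hochberg adjusted p under 0.05 over 16123 genes. That threshold called 0.595% of all genes tested (96 genes). No synthetase was called higher, and no cytosolic enzyme was called in either direction by edgeR, limma-voom or DESeq2. By unadjusted p under 0.05 there were 2 synthetases, Fars2 and Rars, both lower, which is 5.56% of the 36 beside 12.1% of all genes tested. The libraries of the diets did not overlap for 5 synthetases (13.9%), beside 17.1% of all genes. The median log2 fold change (low-Mn diet relative to normal-Mn diet) was -0.017 over the cytosolic enzymes and 0.020 over the mitochondrial enzymes, and -0.003 over all genes. By class, 9 of 19 class I genes and 11 of 17 class II genes had a log2 fold change below 0, counting Eprs, whose protein carries a domain of each class, with class I.

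**Figure D1:**
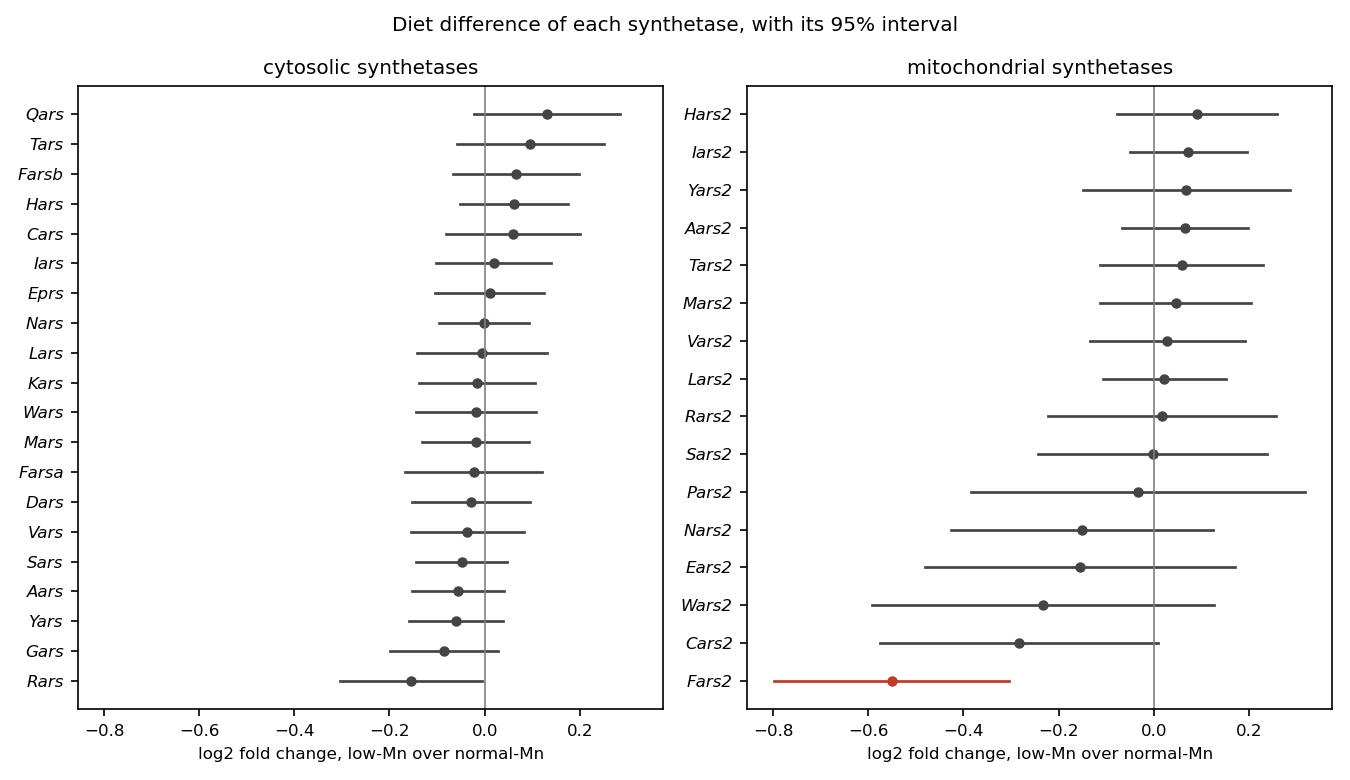
Log2 fold change of each synthetase between the diets, negative where lower on the low-Mn diet (points), with its 95% interval (lines), for 20 cytosolic enzymes at left and 16 mitochondrial enzymes at right, 3 libraries per diet. Fars2, in red, is the gene that passed the test at -0.55, and of the other 35 intervals that of Rars alone leaves out 0.

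Fars2 encodes the mitochondrial phenylalanyl-tRNA synthetase, a class II enzyme that works as a single chain, while its cytosolic counterpart is built from the subunits of Farsa and Farsb. Fars2 measured 10.5, 9.62 and 9.62 CPM in the low-Mn libraries and 13.5, 14.2 and 16.0 CPM in the normal-Mn libraries. Every low-Mn library lay below every normal-Mn library. The means were 9.92 ± 0.52 CPM (SD, n = 3) and 14.6 ± 1.3 CPM (SD, n = 3). The log2 fold change was -0.55 with a standard error of 0.12, a 95% interval from -0.80 to -0.30 and an adjusted p of 0.0389 (edgeR). The low-Mn level was thus 0.683 times the normal-Mn level.

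The call on Fars2 depended on the tool and on single libraries. It was kept in 8 of the 15 alternatives that gave an adjusted p and lost in 7, with a log2 fold change between -0.60 and -0.48 throughout. All 8 were edgeR fits. With default DESeq2, the tool of the paper, independent filtering left Fars2 without an adjusted p, so it was not called. The call was lost with limma-voom (adjusted p = 0.0590) and with DESeq2 without its independent filtering (0.0777). It was also lost in 5 of the 6 fits that left out 1 library, and was kept only without normal-Mn replicate 1 (0.0441, edgeR).

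The Fars2 gene lies at chr13:36117412-36726280 on the plus strand (GRCm38, GENCODE M21). Its first bases overlap the first bases of Lyrm4, a gene of iron-sulfur cluster assembly read from the minus strand, and its last bases overlap Nrn1, which encodes a neuritin anchored in the neuronal membrane. These overlaps cover 10.7% of the Fars2 exon bases, and no source used here says whether counting used strand. Lyrm4 measured 10.98, 7.70 and 9.81 CPM on the low-Mn diet and 9.83, 10.6 and 10.5 CPM on the normal-Mn diet. Nrn1 measured 77.5, 84.3 and 83.3 CPM against 85.4, 84.7 and 89.6 CPM. Lyrm4 overlapped between diets and Nrn1 did not, the latter by a narrow margin. Their log2 fold changes were -0.11 (95% interval -0.40 to 0.18) and -0.08 (95% interval -0.20 to 0.03), and neither passed the test (adjusted p = 0.820 and 0.564, edgeR).

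In GENCODE M21 the called gene and Lyrm4 start 114 bases apart on opposite strands, and the RefSeq start of Fars2 lies downstream of its GENCODE start. The Fars2 promoter from RefSeq (GRCm38.p6, chr13:36117393-36117692, plus strand, 250 bases before and 50 after the RefSeq start) is therefore shown. Capitals mark the 215 bases that also belong to the Lyrm4 promoter.
Fars2 promoter: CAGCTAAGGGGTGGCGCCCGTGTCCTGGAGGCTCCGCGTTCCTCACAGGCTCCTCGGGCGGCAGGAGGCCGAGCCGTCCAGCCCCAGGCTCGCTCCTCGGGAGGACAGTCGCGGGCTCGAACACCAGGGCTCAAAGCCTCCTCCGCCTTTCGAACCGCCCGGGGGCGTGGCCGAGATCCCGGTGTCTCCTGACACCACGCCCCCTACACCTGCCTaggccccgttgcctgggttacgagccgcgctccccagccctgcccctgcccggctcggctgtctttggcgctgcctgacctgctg
It holds 71.7% G and C and 28 CG dinucleotides, beside medians of 52.7% and 7 over all 32851 promoters of the same length.

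The cytosolic partners of Fars2 did not pass. Farsa, the catalytic alpha subunit, measured 35.5, 38.8 and 39.1 CPM on the low-Mn diet and 39.0, 36.9 and 39.3 CPM on the normal-Mn diet. Farsb, the beta subunit, measured 43.9, 42.2 and 42.4 CPM against 41.4, 39.6 and 41.9 CPM. Farsa overlapped between diets, whereas every low-Mn library of Farsb lay above the normal-Mn libraries. The log2 fold changes were -0.02 (95% interval -0.17 to 0.12) and 0.07 (95% interval -0.07 to 0.20).

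Among the 8 enzymes of the multisynthetase complex (Eprs, Iars, Lars, Mars, Qars, Rars, Kars and Dars), 5 had a log2 fold change below 0 and the median was -0.011. Rars, the arginyl enzyme (chr11:35808381-35834506, minus strand), had the smallest p of the cytosolic group. It measured 29.4, 30.2 and 31.0 CPM on the low-Mn diet and 32.7, 33.6 and 34.7 CPM on the normal-Mn diet. The diets did not overlap, and the log2 fold change was -0.16 (95% interval -0.30 to -0.01), but the adjusted p was 0.388 (edgeR). Qars, the glutaminyl enzyme (chr9:108507706-108515941, plus strand), measured 52.0, 52.0 and 43.0 CPM against 44.3, 43.1 and 47.0 CPM. The low-Mn replicate 3 lay below all normal-Mn libraries while the other two lay above them. The log2 fold change of Qars was 0.13 (95% interval -0.02 to 0.28, adjusted p = 0.492, edgeR), the highest of the 36 genes. Eprs, which charges tRNAs with glutamate and with proline from a single polypeptide, measured 126, 116 and 132 CPM against 117, 129.9 and 124 CPM, and the diets overlapped. The remaining members Iars, Lars, Mars, Kars and Dars, which charge isoleucine, leucine, methionine, lysine and aspartate, had log2 fold changes between -0.03 (Dars) and 0.02 (Iars).

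The 6 synthetases best known from dominant peripheral neuropathy (Gars, Yars, Aars, Hars, Mars and Wars) were all among the 8 highest cytosolic enzymes per kilobase of merged exons, and none passed. This depended on the gene length used, since per kilobase of the longest transcript Mars stood at place 10. Of the 6 genes, 5 had a log2 fold change below 0, with a median of -0.037, and Hars was the exception at 0.06. Gars, the glycyl enzyme of both compartments (chr6:55038007-55079500, plus strand), measured 106, 106 and 111 CPM on the low-Mn diet and 111, 123 and 108 CPM on the normal-Mn diet. Yars, the tyrosyl enzyme (chr4:129189760-129219607, plus strand), measured 110.5, 107 and 111 CPM against 113, 112 and 117 CPM. The Gars values overlapped, whereas every Yars library of the low-Mn diet lay below the normal-Mn libraries by a narrow margin. The log2 fold changes were -0.09 for Gars (95% interval -0.20 to 0.03, adjusted p = 0.564) and -0.06 for Yars (95% interval -0.16 to 0.04, adjusted p = 0.673, both edgeR). Aars, Mars and Wars, the alanyl, methionyl and tryptophanyl enzymes, had log2 fold changes of -0.06, -0.02 and -0.02. Hars, the histidyl enzyme, was higher in every low-Mn library (63.0 to 64.8 CPM) than in any normal-Mn library (59.9 to 62.6 CPM), with an adjusted p of 0.719 (edgeR).

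Of the other cytosolic enzymes, Tars, Sars, Nars and Cars are given by library because of their p or their level. Tars, the threonyl enzyme (chr15:11382301-11399665, minus strand), measured 47.4, 47.8 and 40.5 CPM on the low-Mn diet and 40.5, 45.6 and 40.8 CPM on the normal-Mn diet. The low-Mn replicate 3 again stood below the other two, as in Qars, and the log2 fold change was 0.10 (95% interval -0.06 to 0.25, adjusted p = 0.664, edgeR). Sars, the seryl enzyme (chr3:108424865-108445209, minus strand), measured 174, 175 and 166 CPM against 170.5, 182 and 179.7 CPM. Nars, the asparaginyl enzyme, measured 206, 191 and 196 CPM against 194, 204 and 196 CPM. Cars, the cysteinyl enzyme (chr7:143557230-143600090, minus strand), measured 43.9, 39.2 and 42.6 CPM against 40.2, 41.7 and 38.7 CPM. All 4 overlapped between diets. Nars was among the most narrowly measured, with a log2 fold change of -0.002 and a 95% interval from -0.10 to 0.09. Vars, the valyl enzyme, had a log2 fold change of -0.04.

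**Figure D2:**
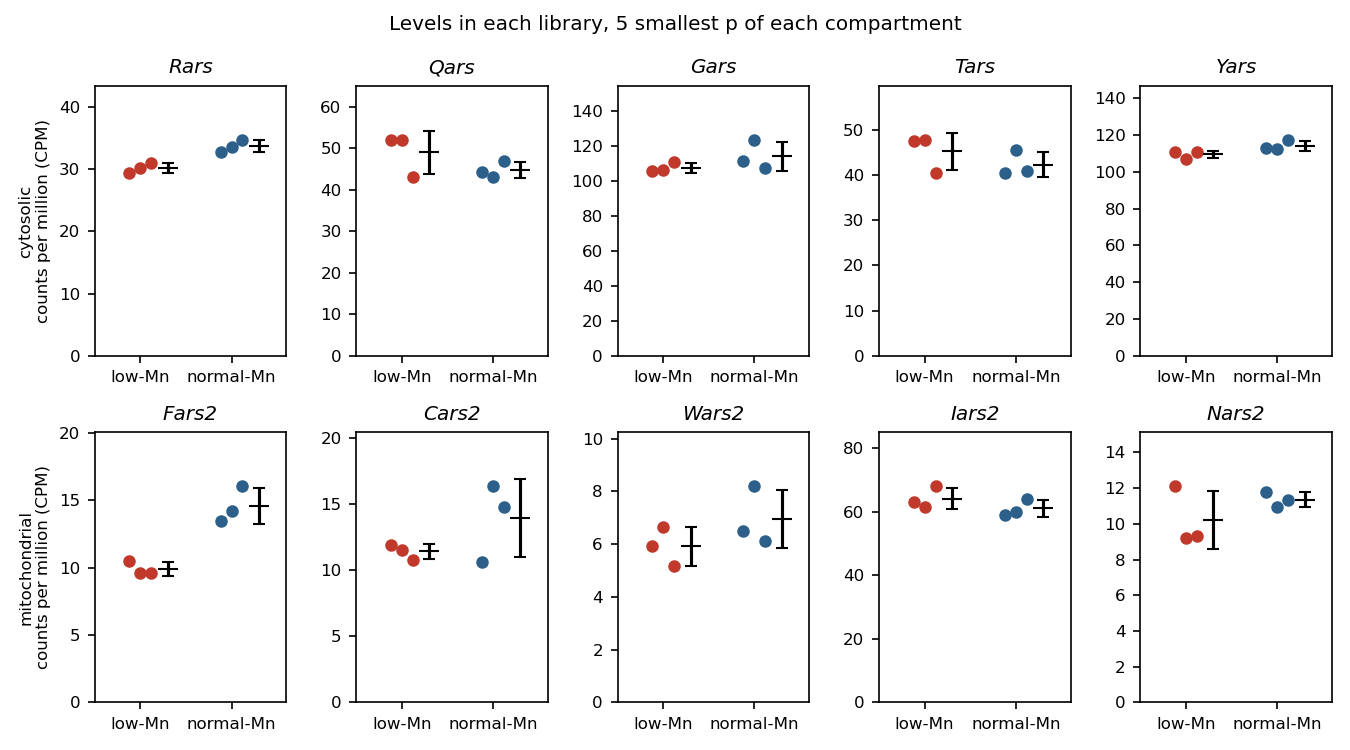
Level in CPM (vertical axis from 0) in each of the 3 low-Mn (red) and 3 normal-Mn (blue) libraries for the 5 cytosolic (top) and 5 mitochondrial (bottom) enzymes with the smallest p, with the mean and SD of each diet in black. Fars2 runs from 9.62 to 10.5 CPM on the low-Mn diet and from 13.5 to 16.0 CPM on the normal-Mn diet. Rars and Yars do not overlap either, and the other 7 do.

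Beside Fars2, the mitochondrial enzymes with the smallest p were Cars2, Wars2, Iars2 and Nars2, and none of them passed. Cars2, the cysteinyl enzyme (chr8:11513977-11550783, minus strand), measured 11.9, 11.5 and 10.8 CPM on the low-Mn diet and 10.6, 16.3 and 14.8 CPM on the normal-Mn diet. The first normal-Mn library lay below all low-Mn libraries, and the log2 fold change was -0.28 (95% interval -0.58 to 0.01, adjusted p = 0.429, edgeR). Wars2, the tryptophanyl enzyme (chr3:99141068-99239186, plus strand), measured 5.93, 6.67 and 5.18 CPM against 6.51, 8.19 and 6.12 CPM. Nars2, the asparaginyl enzyme (chr7:96951505-97064758, plus strand), measured 12.1, 9.21 and 9.31 CPM against 11.8, 10.9 and 11.3 CPM. Both overlapped between diets, with log2 fold changes of -0.23 (95% interval -0.59 to 0.13) and -0.15 (95% interval -0.43 to 0.13). Iars2, the isoleucyl enzyme (chr1:185284726-185329396, minus strand), measured 63.1, 61.5 and 68.0 CPM against 59.1, 60.1 and 64.1 CPM, with a log2 fold change of 0.07 (95% interval -0.05 to 0.20, adjusted p = 0.684, edgeR). Of its exon bases, 24.2% overlap genes on the other strand, among them Rab3gap2, whose log2 fold change was 0.02.

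Of the 16 mitochondrial enzymes 7 had a log2 fold change below 0, and the 5 lowest (Fars2, Cars2, Wars2, Ears2 and Nars2) were, together with Pars2, the 6 genes of lowest CPM among the 36. Ears2, the glutamyl enzyme (chr7:122037213-122067263, minus strand), measured 6.63, 6.05 and 8.08 CPM on the low-Mn diet and 7.68, 7.24 and 8.24 CPM on the normal-Mn diet. Pars2, the prolyl enzyme at a similarly low level, ranged from 5.76 to 8.29 CPM over the 6 libraries, with a log2 fold change of -0.03 (95% interval -0.38 to 0.32). Lars2, the leucyl enzyme (chr9:123366927-123462666, plus strand), measured 219, 198 and 187 CPM against 179, 201 and 215 CPM. Aars2, the alanyl enzyme (chr17:45506841-45520843, plus strand), measured 46.0, 45.6 and 44.0 CPM against 44.6, 43.7 and 41.2 CPM. Hars2, the histidyl enzyme, measured 32.9, 33.7 and 31.5 CPM against 29.8, 34.1 and 28.1 CPM. These overlapped between diets, and their log2 fold changes were 0.02, 0.07 and 0.09. Mars2, Rars2, Sars2, Tars2, Vars2 and Yars2 lay between -0.002 (Sars2) and 0.07 (Yars2).

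The intervals say how far a diet difference could reach in these libraries. For 27 of the 35 synthetases other than Fars2, the whole 95% interval lay within a 1.2-fold difference in either direction (0.26 on the log2 scale). These were 18 cytosolic and 9 mitochondrial enzymes. The mitochondrial enzymes were measured less precisely, with a median standard error of the log2 fold change of 0.11 against 0.058 for the cytosolic enzymes. The median coefficient of variation within a diet was 8.20% and 4.30%. The furthest bounds of the 35 genes were -0.59 (Wars2) and 0.32 (Pars2).

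Levels between genes were compared as CPM per kilobase of merged exons, averaged over the 6 libraries. Nars was the highest cytosolic enzyme at 45.4 CPM per kilobase, followed by Gars (35.5) and Sars (33.9), which differed by less than their spread over libraries. Cars (6.24) and Eprs (6.85) were the lowest by this measure. Among mitochondrial enzymes, Lars2 was the highest at 18.0 CPM per kilobase, 1.95 times Aars2 (9.27), and Hars2 (7.41) and Iars2 (7.05) followed without differing beyond their spread. The lowest were Wars2 (1.08) and Ears2 (1.42). Pars2, Fars2, Cars2, Nars2 and Ears2, next to each other between 2.19 and 1.42, could not be ordered beyond the spread of neighbours. Over all neighbours in the order, 13 of 19 cytosolic steps and 7 of 15 mitochondrial steps exceeded the spread over libraries.

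The choice of gene length mattered for the order. Per kilobase of the longest annotated transcript, the level was over 1.5 times higher for 16 of the 36 genes, and Eprs rose from 6.85 to 22.0 CPM per kilobase, moving from place 19 to place 11 of the 20 cytosolic enzymes. Lars2 stood at 51.4 and Nars at 72.1, and both kept the first place of their group. Fars2 changed from 2.13 to 3.64.

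**Figure D3:**
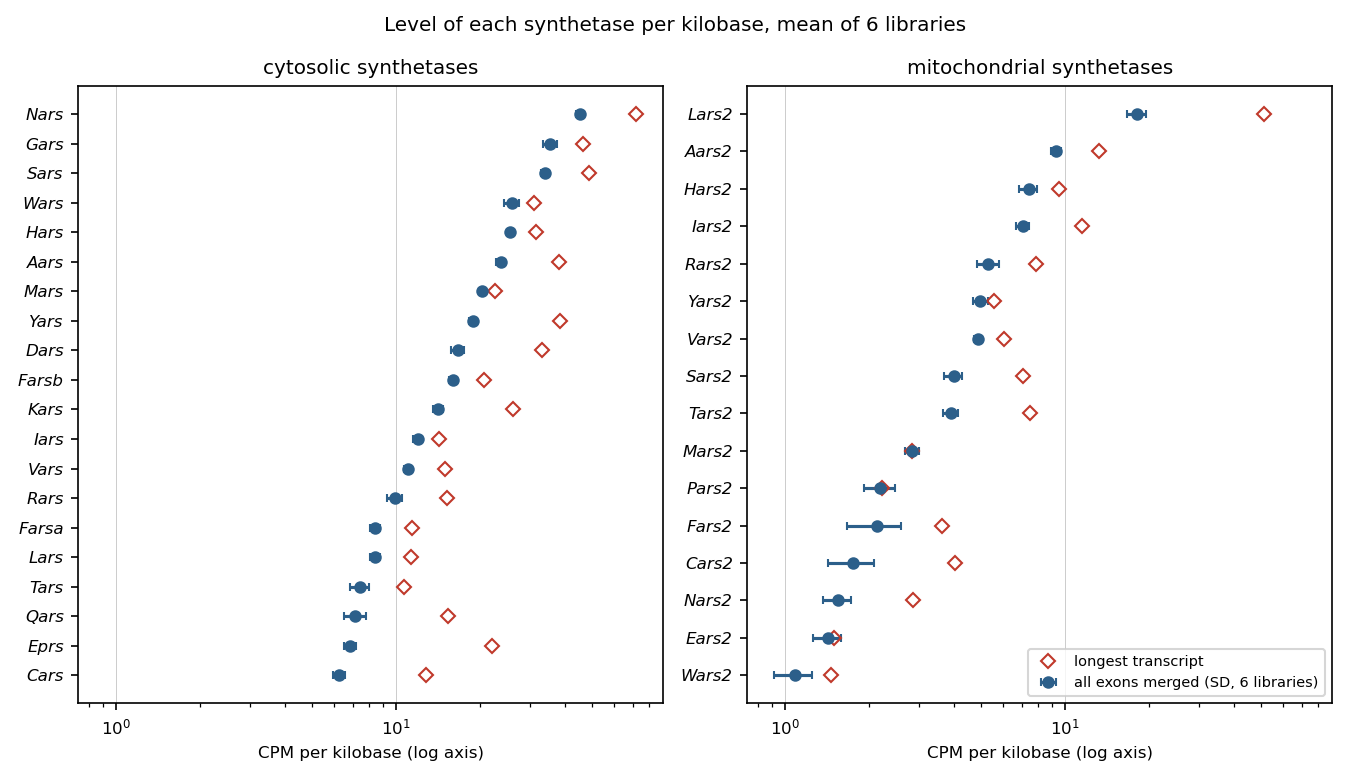
Level of each synthetase in CPM per kilobase on a log axis, mean of 6 libraries, with gene length taken as merged exons (filled circles, bars give the SD) or as the longest transcript (open diamonds). Nars (45.4) and Lars2 (18.0) are the highest of the cytosolic and mitochondrial groups by merged exons, and Wars2 (1.08) is the lowest of all.

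Enzymes for the same amino acid were set side by side in 17 pairs, counting Eprs against both Ears2 and Pars2, and Fars2 against both Farsa and Farsb. The cytosolic gene was higher per kilobase in 16 of them, by a median of 3.57-fold (3.31-fold with the longest transcript). The pair that ran the other way was leucine, where Lars stood at 0.465 times Lars2. The largest ratios were those of asparagine (Nars over Nars2, 29.4-fold) and tryptophan (Wars over Wars2, 24.0-fold). The smallest ratios above 1 were those of isoleucine (1.70-fold), arginine (1.86-fold) and threonine (1.90-fold). With the longest transcript these ratios were 1.24-fold, 1.92-fold and 1.43-fold, so their order depended on the length used. Group medians were 15.1 CPM per kilobase for cytosolic and 3.95 for mitochondrial enzymes. The summed level of the cytosolic group was 1686 to 1711 CPM on the low-Mn diet and 1688 to 1748 CPM on the normal-Mn diet, and that of the mitochondrial group 512 to 547 CPM and 496 to 539 CPM. Both sums overlapped between diets.

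Several synthetases start beside a coding gene on the other strand. Within 1000 bases this held for 9 of the 36 genes (25.0%), beside 14.98% of the 14156 coding genes tested. Hars and Hars2, the cytosolic and mitochondrial histidyl enzymes, are each other's partner with overlapping first bases, and their log2 fold changes were 0.06 and 0.09. Sars2 starts 172 bases from Mrps12, a protein of the small mitochondrial ribosomal subunit, and both were near 0 (-0.002 and -0.007). Rars2 starts 13 bases from Orc3, of the origin recognition complex (0.02 and 0.13), Kars 75 bases from Terf2ip, a telomere protein (-0.02 and -0.11), and Yars 33 bases from S100pbp (-0.06 and 0.04). The first bases of Ears2 overlap those of Ubfd1 (-0.15 and 0.06), and Wars overlaps the first 543 bases of Wdr25 without a shared exon base (-0.02 and -0.07). Fars2 was the only gene of these pairs that was called.

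The promoters of the cytosolic enzymes carry sequences that were searched because of the amino acid response. The letters TGATGNAA, a form of the element that ATF4 and its partner CEBP proteins bind, were looked for on both strands of the RefSeq promoters (300 bases each). A promoter was matched for 27 of the 36 genes, 13 cytosolic and 14 mitochondrial. The letters were found in 5 of the 13 cytosolic promoters (38.5%) and in 0 of the 14 mitochondrial promoters, beside 4.51% of all 27025 genes with a promoter and 2.73% of the tested genes with one (3.97% of all 32851 promoters). Of the amino acid response genes described below, 7 of 29 with a promoter held the letters. For each of the 5 genes, a stretch of 30 bases around a match is shown 5′ to 3′ on the strand that reads the motif, with the motif in capitals.
Aars, chr8:111033840-111033869, minus strand: tcagagcgctcTGATGAAAagtgacccgct
Gars, chr6:55037960-55037989, minus strand: cgcccggtgcaTGATGAAAtagcgcagcca
Iars, chr13:49682126-49682155, minus strand: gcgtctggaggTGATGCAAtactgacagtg
Tars, chr15:11399655-11399684, plus strand: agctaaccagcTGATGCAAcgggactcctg
Yars, chr4:129189895-129189924, plus strand: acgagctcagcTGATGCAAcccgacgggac
The 5 genes had log2 fold changes between -0.09 (Gars) and 0.10 (Tars), and none passed. A match of letters describes the sequence and does not show binding.

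Of the 31 genes of the amino acid response 2 rose, Ddit4 and Slc38a2, beside 0.595% of all genes called in either direction. The paper names both among its most raised genes from these libraries, and the list was chosen with earlier results known. The share called is therefore not independent of these data. The list lay on both sides of 0, with 14 genes above and 17 below, a median log2 fold change of -0.018 and a range from -0.32 to 0.55. By unadjusted p under 0.05, 3 were higher and 2 lower (16.1% of the list, beside 12.1% of all genes). Ddit4, an inhibitor of mTORC1 signaling, measured 81.4, 81.0 and 67.0 CPM on the low-Mn diet and 53.4, 53.1 and 49.97 CPM on the normal-Mn diet. Slc38a2, a transporter of small neutral amino acids, measured 274, 258 and 254 CPM against 219, 217 and 216 CPM. Neither overlapped between diets, and the log2 fold changes were 0.55 (SE 0.069, adjusted p = 0.00055) and 0.27 (SE 0.044, adjusted p = 0.0056, both edgeR). Both are also regulated outside this response. Asns, asparagine synthetase and a classic ATF4 target, measured 78.6, 79.1 and 86.5 CPM against 83.5, 95.3 and 90.1 CPM, with a log2 fold change of -0.14 (adjusted p = 0.335, edgeR). Atf4 itself had a log2 fold change of -0.002 (95% interval -0.09 to 0.09).

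Proteins that work with the synthetases were not called. Of 15 scaffold and tRNA partner genes, 8 lay below 0, with a median of -0.017. By unadjusted p under 0.05 there was 1 (6.67%, beside 12.1% of all genes). limma-voom and DESeq2 called 0 of the 15 genes as well. The smallest p were those of Dtd1, which removes D-amino acids from tRNA (34.4, 36.8 and 35.2 CPM against 31.2, 33.4 and 30.9 CPM, log2 fold change 0.15, adjusted p = 0.392), Sepsecs, which completes selenocysteine on its tRNA (0.16, adjusted p = 0.450), and Aimp2, a scaffold of the multisynthetase complex (0.20, adjusted p = 0.521, all edgeR). In all, 5 of the 15 genes did not overlap between diets (33.3%, beside 17.1% of all genes). Of these, Dtd1, Sepsecs and Aimp2 were higher on the low-Mn diet, while Gatc, of the mitochondrial glutaminyl-tRNA amidotransferase, and Dtd2, a relative of Dtd1, were lower (log2 fold changes -0.06 and -0.23). Of the Aimp2 exon bases, 29.4% overlap Eif2ak1 on the other strand, and the effect of this on its counts was not tested.

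The 10 elongation factors, which carry charged tRNA to the ribosome and move it along, had a median of -0.005, and edgeR called 0 of them. By unadjusted p under 0.05 there were 3 (30.0%, beside 12.1% of all genes), all lower. Eef1a1, which delivers charged tRNA in the cytosol, measured 1347, 1326 and 1372 CPM on the low-Mn diet and 1474, 1517 and 1437 CPM on the normal-Mn diet, without overlap. Its log2 fold change was -0.13 (95% interval -0.22 to -0.05, adjusted p = 0.176, edgeR). DESeq2 called Eef1a1 as the 1 gene of the 10, beside 137 of 26954 genes in all. limma-voom called 0 of the 10, beside 63 of 16123 genes in all. The list was chosen with earlier results known, and the paper also lists Eef1a1 as lowered. Eef1g and Eef2, a subunit of its exchange factor and the translocation factor, stood at -0.10 and -0.08 (adjusted p = 0.365 and 0.401, edgeR). Eef1a1 shares 40.4% and Eef1g 44.2% of their stretches of 50 bases with other annotated genes, and Eef2 shares 7.10%. How this sharing bears on their counts was not tested.

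Of 25 genes of mitochondrial translation, ribosomal proteins and factors that start, end or recycle, 13 lay below 0, and 0 were called by edgeR, limma-voom or DESeq2. There was 1 with an unadjusted p under 0.05 (4%, beside 12.1% of all genes). The libraries of the diets did not overlap for 12% of the 25 genes, beside 17.1% of all genes. The smallest p were those of Mrrf, the ribosome recycling factor (-0.24, 95% interval -0.47 to -0.01, adjusted p = 0.387), and of the ribosomal proteins Mrpl13 (0.15, adjusted p = 0.448) and Mrpl15 (-0.16, adjusted p = 0.476, all edgeR). Of the Mrrf exon bases, 15.1% overlap genes on the other strand, among them Rbm18.

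Several marker lists of other cell types lay lower on the low-Mn diet, while the library medians of both synthetase groups overlapped between diets. All 6 oligodendrocyte markers, all 6 choroid plexus markers, all 6 meninges markers and all 6 microglia markers had a log2 fold change below 0. Kl of the choroid plexus (-0.51) and Igf2 of the meninges (-0.26) were among the called genes, with adjusted p of 0.0018 and 0.0432 (edgeR). The paper lists both among its lowered genes from these libraries, and the marker lists were chosen with earlier results known. Kl was called in all 16 alternatives and Igf2 in 10, the latter being lost with limma-voom and in 5 of the 6 fits without 1 library, at adjusted p of up to 0.200. None of these markers was at 0 in any library. The summed levels on the low-Mn and normal-Mn diet were 6535 to 6807 and 6990 to 7765 CPM for oligodendrocytes, 2188 to 2717 and 2528 to 3059 CPM for choroid plexus, 245 to 274 and 293 to 334 CPM for meninges, and 125 to 132 and 142 to 145 CPM for microglia. Of the astrocyte and Bergmann glia markers 5 of 6 lay below 0 (2900 to 2958 and 3049 to 3167 CPM), and 0 passed. Endothelium markers (162 to 172 and 160.2 to 170.5 CPM) and hemoglobin and heme genes of red blood cells (330.0 to 762 and 389 to 556 CPM) overlapped between diets, as did the sums of the choroid plexus markers. Fars2 moved in the same direction as these glial and lining cell markers, and their part in its difference was not tested.

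**Figure D4:**
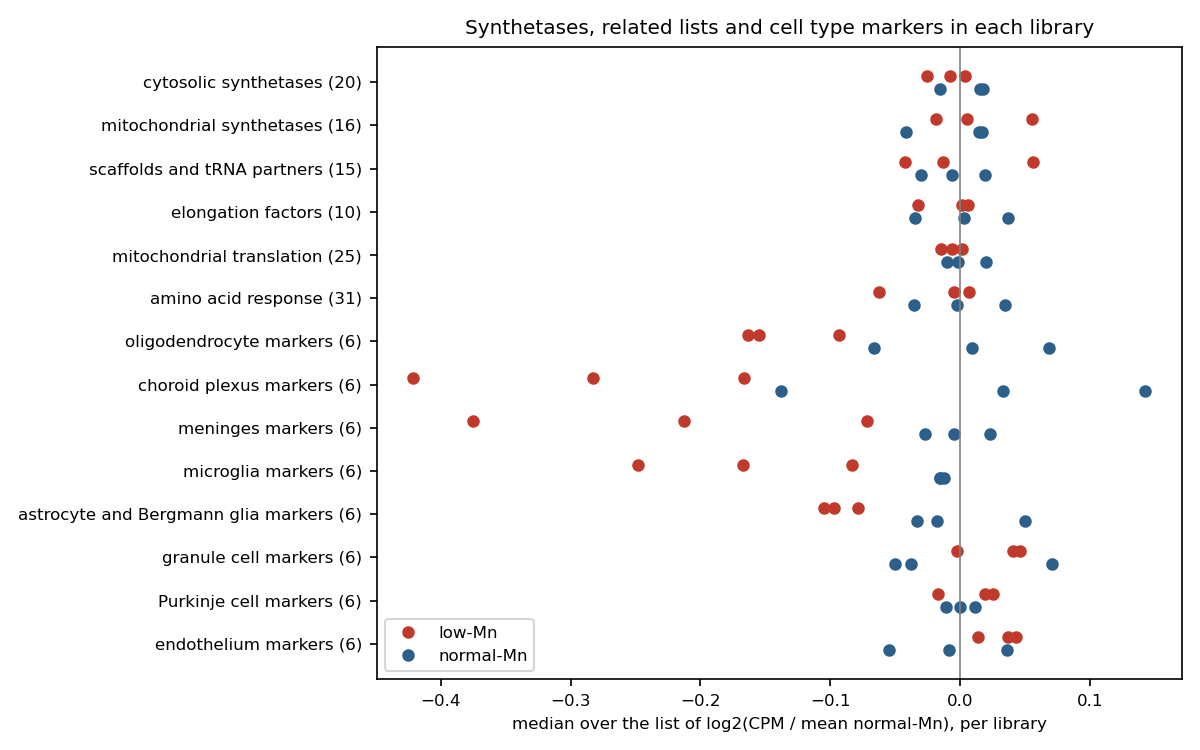
For each library (red low-Mn, blue normal-Mn), the median over a gene list of the log2 ratio of CPM to the normal-Mn mean, with the number of genes in brackets. The cytosolic synthetases lie between -0.026 and 0.018 and the mitochondrial ones between -0.042 and 0.056 in all 6 libraries, with the diets overlapping. The low-Mn libraries lie below the normal-Mn libraries for oligodendrocyte, choroid plexus, meninges, microglia and astrocyte markers.

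Other shared sequence was small for most synthetases. Overlap with another gene or shared stretches of 50 bases reached 10% of the exon bases in 3 of the 36 genes, which were Fars2, Iars2 and Aars. The exons of Aars overlap those of Exosc6 on the same strand (14.3%), and Exosc6 had 0 counts in every library. Whether reads of Exosc6 were counted to Aars was not tested. Iars shares 7.15% of its stretches of 50 bases with the annotated gene Gm4849.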

How the data were processed

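The members and all gene lists were chosen with earlier results of these data known. The authors made polyadenylated RNA libraries and mapped the reads with STAR to files from Ensembl. RSEM, FastQC, DESeq2 and mm10 are named in the submitters' processing notes, with no versions. The values the authors deposited are expected counts, not normalized. Between 7.12% and 7.74% of values were not whole, and all were rounded. The 92 spike-in entries were 0 and were left out. Symbols, positions and lengths are those of GENCODE M21, with 53620 of 53715 genes matched.

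In R 4.3.3, genes were filtered by filterByExpr of edgeR 4.0.16 (minimum count 10, minimum total 15), scaled by TMM and tested with glmQLFit and glmQLFTest, with Benjamini-Hochberg adjustment over 16123 genes. Intervals use the total degrees of freedom of that fit. The scripts were tested on simulated data. Alternatives used limma 3.58.1, DESeq2 1.42.0, other scalings, filters and lengths, and left out each library. The low-Mn columns carry only a replicate number and were matched to their samples by it. Every column was used.

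All members are named. Values by library are given for called members, the 5 smallest p, the 3 highest and 2 lowest levels per kilobase of each compartment, and in part for other genes. Of other lists, called genes and the 3 smallest p are named, except a marker gene that is not reported here, and Farsa, Hars, Pars2, Atf4, Gatc, Dtd2 and neighbouring genes were added after their values were seen. Figures used matplotlib 3.10.9 in Python 3.11.15.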

Additional observations from a re-analysis of the deposited data

How the results depend on the processing

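Fars2 was lower in all 16 alternatives, and no other synthetase was called in any of them (smallest adjusted p 0.128, for Cars2). The number of synthetases called lower fell from 1 to 0 under DESeq2 without independent filtering and under limma-voom, and ran from 0 to 1 when 1 library was left out. With default DESeq2 0 synthetases were called, and Fars2 had no adjusted p. Calls over all genes changed from 96 to 424 with no filter on low counts, to 167 with the gene length and GC trend removed and to 63 with limma-voom, and ran from 37 to 93 with 1 library left out. The median log2 fold change of the cytosolic enzymes changed from -0.017 to 0.0012 with the length and GC trend removed and ran from -0.029 to 0.0033 with 1 library left out, and that of the mitochondrial enzymes ran from -0.006 to 0.033, so neither has a stable sign. The causes were not tested. Of the 36 synthetases, 19 kept the sign of their log2 fold change in every alternative, and the other 17 were all within 0.069 of 0. Same-numbered libraries of the diets did not deviate together (r = 0.030, -0.024 and 0.036). With a replicate block, Fars2 stayed lower at an adjusted p of 0.0445 and 128 genes were called. The rarest mitochondrial enzymes, down to 84 counts in a library, had the widest intervals.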
